A study of Mus musculus with 4 samples.

Results

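Chloride entry and its kinases were followed through 7 genes of the stria vascularis (SV), the epithelium of the cochlear lateral wall that secretes potassium into endolymph. The genes were Slc12a2, which encodes the sodium-potassium-chloride cotransporter NKCC1, Bsnd, which encodes the chloride channel subunit barttin, the with-no-lysine kinase genes Wnk1, Wnk2 and Wnk4, and Stk39 and Oxsr1, which encode the kinases SPAK and OSR1. They were taken by symbol, and all 7 were listed in each of the 4 libraries, among 27998 genes listed for cells and 48816 listed for nuclei. The libraries were 3 captures of whole cells and 1 capture of nuclei of SV tissue, taken at postnatal day 30 from CBA/J mice, and the labels gave no treatment or allele for any of them. Each suspension pooled tissue of several mice, so that a capture, and not a mouse, was the replicate for cells, and the nuclei had no replicate.

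As background, marginal cells face the endolymph and take up sodium, potassium and chloride across their basolateral membrane through NKCC1. Potassium leaves at the apical side through the KCNQ1/KCNE1 channel, and chloride returns across the basolateral membrane through channels of which barttin is a subunit. WNK kinases sense low chloride and cell shrinkage, phosphorylate SPAK and OSR1, and these in turn phosphorylate NKCC1, which activates it, and the potassium-chloride cotransporters, which inhibits them. Intermediate cells are the melanocyte-derived middle layer, basal cells seal the SV from the spiral ligament, and spindle and root cells lie at its edges.

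The 3 cell captures held 392, 1358 and 1580 barcodes and the nucleus capture 11057, with 2811309 to 8340882 unique molecular identifiers (UMIs) per cell capture and 22332501 in nuclei. After barcodes with under 200 genes and predicted doublets were left out, 377, 1314 and 1461 cells and 9723 nuclei remained, with a median of 3873 to 5050 UMIs per cell and 1497 per nucleus and a median mitochondrial share of 38.6 to 45.4% in cells and 8.23% in nuclei. Barcode sequences shared between libraries numbered 0 to 6 among cell captures and 7 to 32 between a cell capture and the nuclei. Types were grouped by markers that did not include the 7 genes or the other genes of the pathway. In captures 1, 2 and 3 there were 19, 68 and 45 marginal cells, 137, 447 and 407 intermediate cells, 24, 78 and 64 basal cells, beside 4, 14 and 13 cells of the spindle/root class. The nuclei held 2534 marginal, 1462 intermediate, 596 basal and 211 spindle/root nuclei. The 4 spindle/root cells of capture 1 were too few for a sum, so this type rested on captures 2 and 3 and on 27 cells. Marginal and spindle/root cells came from the same cluster, which had raised markers of several classes and was split by a second clustering. A further 1655 cells and 3920 barcodes of the nucleus library stayed unnamed. The 3 largest unnamed clusters of that library had mitochondrial shares of 35.3 to 61.6%, against 6.40% in marginal nuclei.

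The labelled types were checked against their marker lists as UMIs per 1000000 UMIs of the sum (CPM). The 8 marginal markers, of which Kcne1 and Kcnq1 are the best known, summed to 5047 to 5205 CPM in marginal cells, to 93.0 to 524 CPM in intermediate and basal cells, and to 995 and 1098 CPM in spindle/root cells. In nuclei the same list summed to 10369.97 CPM in marginal, 2930.3 CPM in basal, 1939 CPM in spindle/root and 851 CPM in intermediate nuclei. Intermediate markers, led by pigment genes, summed to 19946 to 27161 CPM in intermediate cells but also to 5351 to 8738 CPM in marginal and 6586 to 10205 CPM in basal cells. In nuclei they summed to 36219 CPM in intermediate, 3677 CPM in basal, 2999 CPM in spindle/root and 1685 CPM in marginal nuclei. Basal markers summed to 6682 to 8998 CPM in basal cells and to 881 to 2452 CPM in the other 3 types. The data went partly against the basal label, since basal nuclei had 2594 CPM of basal markers, less than of intermediate or marginal markers, and basal cells of capture 1 had 10205 CPM of intermediate against 8536 CPM of basal markers. Spindle/root markers summed to 8289.5 and 9317 CPM in spindle/root cells and 4169 CPM in spindle/root nuclei, and to at most 297 CPM in the other 3 types. Basal sums also held fibrocyte markers, at 48.4, 2276 and 2890.1 CPM in the 3 captures. The part of such RNA or cells in the results below was not tested, except where a value is given beside the result.

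Slc12a2 was highest in marginal cells of every capture. It measured 6679, 7219 and 8346 CPM in marginal cells of captures 1, 2 and 3 (mean 7415 ± 851, SD, n = 3). In intermediate cells it measured 2089.5, 1992 and 2324 CPM (2135 ± 171, n = 3). In basal cells it measured 2389, 1839.9 and 1752 CPM (1994 ± 345, n = 3). In spindle/root cells of captures 2 and 3 it measured 1087 and 970.1 CPM (1028 ± 82.6, n = 2). The marginal values did not overlap with those of any other type, the intermediate and basal values overlapped, and the spindle/root values lay below all of them. Erythroid cells had 58.4 and 129.6 CPM, macrophages 47.6 to 102 CPM, and the B cells of capture 3 had 89.6 CPM.

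**Figure D1:**
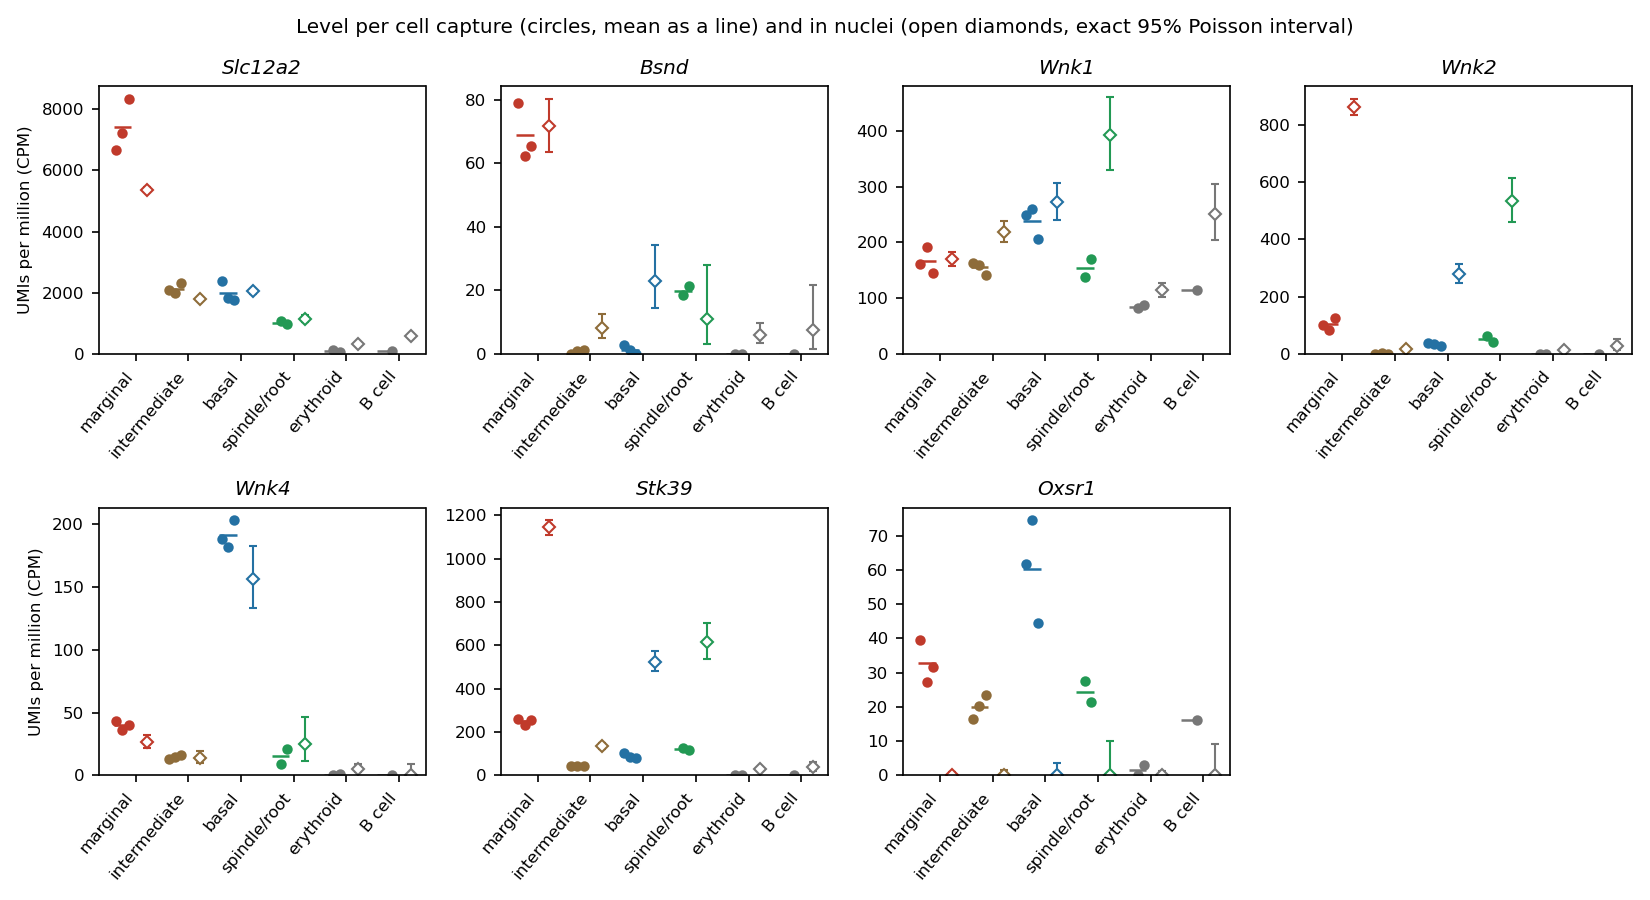
Levels of the 7 genes in CPM (vertical axis, linear, one scale per panel) by type (horizontal axis); circles are cell captures, short lines their means, and open diamonds the nucleus library with its exact 95% Poisson interval. Slc12a2, Bsnd, Wnk2 and Stk39 stood highest in marginal cells, Wnk4, Oxsr1 and Wnk1 in basal cells, and Oxsr1 was at 0 in nuclei.

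For the tests, the cell UMIs of each capture and type were added up and fitted in edgeR with the capture as a block, and a quasi-likelihood test with Benjamini-Hochberg adjustment over 7372 genes gave the adjusted p-values. The sums of a capture come from 1 suspension, and the p-values refer only to spread between these captures. For each gene, edgeR estimates that spread partly from the other genes in the fit. Very small p-values thus do not rest on the sums of that gene alone. Each type was set against the mean of the other 3 on the log2 scale, which weights the 3 equally and is pulled down by a type near 0. Slc12a2 was higher in marginal cells by 2.05 on the log2 scale (SE 0.10, adjusted p = 5.95e-33), in 3 of 3 captures. It was higher in marginal than in intermediate cells by 1.47 on the log2 scale (SE 0.12, adjusted p = 1.46e-18), than in basal cells by 1.74 (SE 0.13, adjusted p = 6.81e-22) and than in spindle/root cells by 2.95 (SE 0.17, adjusted p = 6.79e-27). The neighbours intermediate and basal did not pass the test (intermediate minus basal 0.27 on the log2 scale, SE 0.12, adjusted p = 0.0779). Spindle/root cells had less Slc12a2 than intermediate cells by 1.48 (SE 0.17, adjusted p = 3.55e-12) and than basal cells by 1.21 (SE 0.17, adjusted p = 1.21e-08). The order was therefore marginal, then intermediate with basal, then spindle/root, and the place of spindle/root cells turned with the clustering. At resolution 0.4, where the class took in other cells, the differences from intermediate and basal cells were -0.67 and -0.96, and with the 7 genes and the pathway list allowed in clustering the difference of basal from spindle/root cells, 0.26, did not pass (adjusted p = 0.243).

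UMIs of Slc12a2 were found in nearly every barcode of the 3 main types. Among marginal cells 98.5 to 100% had at least 1 UMI of it, against 96.4 to 98.0% of intermediate, 92.2 to 96.2% of basal, 38.5 and 71.4% of spindle/root and 41.4 and 50.0% of erythroid cells. The median depth was 10713 to 14677 UMIs per marginal cell, 5941 to 7269 per intermediate cell and 10054.5 and 10240.0 per erythroid cell, so barcodes were thinned to 1000 UMIs. The share then stayed at 98.5 to 100% in marginal cells and came to 75.4 to 84.8% in intermediate, 65.6 to 83.3% in basal, 30.8 and 35.7% in spindle/root and 8.05 and 21.4% in erythroid cells. Intermediate and basal cells thus lay well above the erythroid share at equal total depth. Erythroid markers summed to 761629 and 665790 CPM in the erythroid cells of captures 2 and 3, which left fewer UMIs there for other genes. Red blood cells are known to carry the cotransporter themselves, so the erythroid values are a comparison and no measure of free RNA alone.

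The level of Slc12a2 in the other types was also set beside that of the 8 marginal markers, each as a percent of its level in marginal cells of the same capture. These markers also served to name the types, so their low level outside marginal cells was partly set by the naming. In intermediate cells Slc12a2 stood at 31.3, 27.6 and 27.8% of the marginal level, while the 8 markers reached 4.99, 5.70 and 4.03% at most. In basal cells it stood at 35.8, 25.5 and 21.0%, and the markers reached at most 13.6, 6.83 and 8.32%. Slc12a2 therefore lay above all 8 markers in both types and in every capture. In spindle/root cells Slc12a2 stood at 15.1 and 11.6%, inside the markers' ranges of 0 to 49.1% and 11.5 to 46.0%. In nuclei Slc12a2 lay above the markers in the intermediate type, at 33.2% against 1.50 to 22.9%, but inside their range in the basal type, at 38.0% against 18.3 to 40.1%, and in the spindle/root type, at 21.4% against 6.44 to 30.4%. In erythroid barcodes it came to 1.80 and 0.700% in cells and to 5.78% in nuclei. In unnamed cells Slc12a2 stood at 26.2, 27.3 and 21.9%. The markers reached at most 22.2, 31.5 and 22.2% there, so Slc12a2 lay above them in capture 1 only. In unnamed barcodes of the nucleus library it stood at 56.4%, inside the markers' range of 6.08 to 79.2%.

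**Figure D2:**
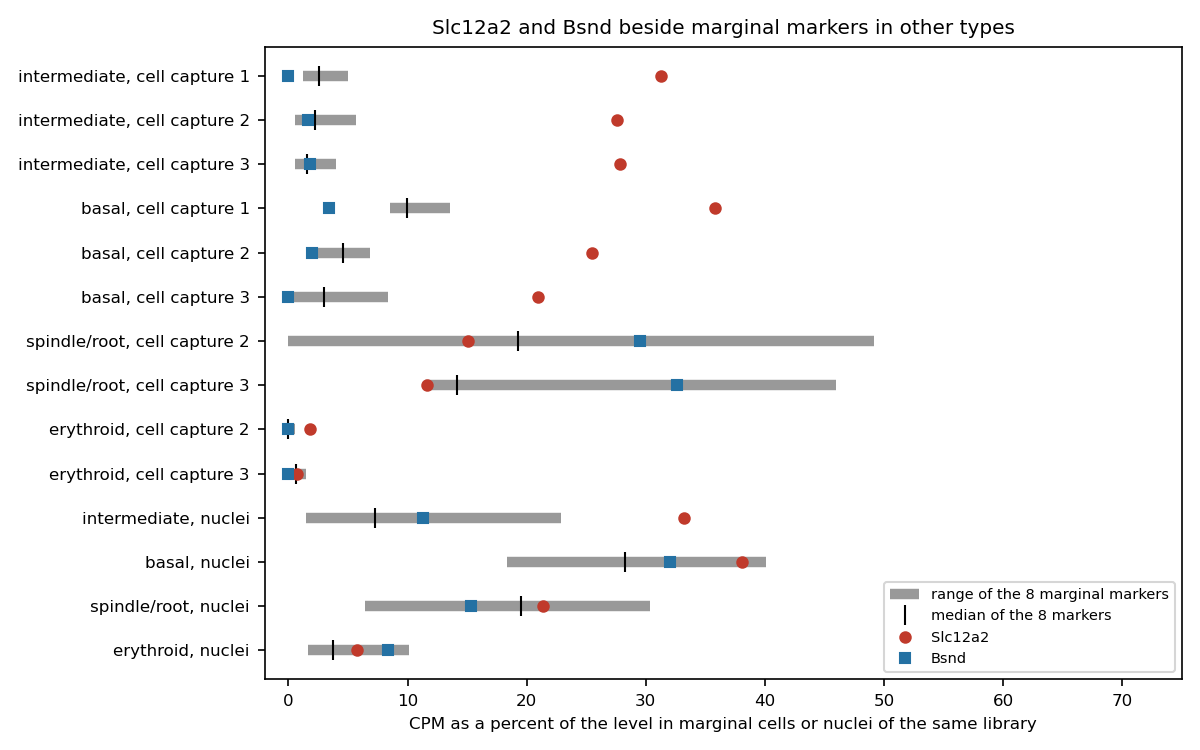
Slc12a2 and Bsnd in other types as a percent of their CPM in marginal cells or nuclei of the same library (horizontal axis, linear), one line per type and library; grey bars give the range and black ticks the median of the 8 marginal markers. The red circles for Slc12a2 lie to the right of the grey bars in intermediate and basal cells, whereas the blue squares for Bsnd lie within the bars or to their left there.

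Bsnd was concentrated in marginal cells. It lies at chr4:106483456-106492283 on the minus strand (mm10). Bsnd measured 79.0, 62.4 and 65.4 CPM in marginal cells (68.9 ± 8.89, SD, n = 3), which rested on 99 UMIs. Intermediate cells had 0, 1.05 and 1.17 CPM, or 6 UMIs in all. Basal cells had 2.69, 1.22 and 0 CPM, or 2 UMIs in all. Spindle/root cells had 18.4 and 21.3 CPM, from 2 UMIs in each capture, and erythroid cells had none. The marginal values lay above all others without overlap.

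The fold change of Bsnd in marginal cells was 4.32 on the log2 scale (SE 0.38, adjusted p = 3.76e-17), in 3 of 3 captures. The ratio of pooled CPM was 72.6 against intermediate cells, with a counting interval of 32.2 to 203, and 54.2 against basal cells, with an interval of 14.6 to 454. Bsnd was lower in intermediate cells than in the mean of the other types by 3.26 (log2 fold change -3.26, SE 0.82, adjusted p = 0.000723), and in basal cells the log2 fold change was -2.96 (SE 0.87, adjusted p = 0.00611). The basal call was lost without capture 2 (adjusted p = 0.101) and without capture 3 (adjusted p = 0.0806). Against spindle/root cells the ratio was 3.35 (interval 1.27 to 12.5) and the log2 fold change 1.82 (SE 0.68, adjusted p = 0.0446), a call that was lost without capture 2 (adjusted p = 0.262) or capture 3 (adjusted p = 0.181) and under 6 other alternatives, and whose direction turned at resolution 0.4 (-0.42, adjusted p = 0.383).

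In intermediate cells Bsnd stood at 0, 1.68 and 1.79% of the marginal level, which is no more than the marginal markers reached there. Slc12a2 lay above these markers in intermediate cells and Bsnd did not. The markers also served to name the types, so this comparison is a description.

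Stk39, the gene of SPAK, was highest in marginal cells. It lies at chr2:68210445-68472268 on the minus strand. Its levels were 261, 233 and 257 CPM in marginal cells (250.2 ± 15.4, SD, n = 3), 45.9, 43.6 and 44.9 CPM in intermediate cells (44.8 ± 1.16, n = 3), 105, 85.5 and 82.6 CPM in basal cells (91.0 ± 12.1, n = 3) and 129 and 117 CPM in spindle/root cells (123 ± 8.26, n = 2). Marginal and intermediate values each stood apart from those of every other type. The log2 fold change was 1.51 in marginal cells (SE 0.14, adjusted p = 1.61e-16), and Stk39 was lower in intermediate cells (log2 fold change -1.34, SE 0.16, adjusted p = 2.54e-11). Among pairs, marginal exceeded spindle/root cells by 1.09 (SE 0.28, adjusted p = 0.00176; 1.00 with adjusted p = 0.0765 without capture 3, and 0.27 with adjusted p = 0.261 at resolution 0.4) and basal exceeded intermediate cells (intermediate minus basal -0.84, SE 0.17, adjusted p = 2.34e-05). Basal and spindle/root cells, neighbours in this order, did not pass the test (-0.22, SE 0.32, adjusted p = 0.674).

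Wnk2 was the WNK kinase gene with its highest level in marginal cells. It lies at chr13:49036303-49148014 on the minus strand. It measured 103, 83.1 and 126 CPM in marginal cells (104 ± 21.7, SD, n = 3), against 0.865, 2.44 and 1.56 CPM in intermediate cells (1.62 ± 0.789, n = 3). In basal cells it measured 37.6, 35.4 and 26.8 CPM (33.3 ± 5.73, n = 3), and in spindle/root cells 64.5 and 42.6 CPM (53.6 ± 15.4, n = 2). Intermediate cells were thus set apart by their near lack of Wnk2, with 12 UMIs in 991 cells. The log2 fold change was 2.61 in marginal cells (SE 0.23, adjusted p = 3.52e-17) and -4.57 in intermediate cells (SE 0.41, adjusted p = 3.58e-17). Marginal exceeded intermediate cells by 5.38 (SE 0.30, adjusted p = 6.66e-29) and basal cells by 1.42 (SE 0.24, adjusted p = 6.16e-07). The difference from spindle/root cells, 1.02 (SE 0.43, adjusted p = 0.0823), did not pass the test, nor did that between basal and spindle/root cells (-0.40, SE 0.52, adjusted p = 0.625).

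Wnk4 was highest in basal cells. It lies at chr11:101260567-101277409 on the plus strand, and the listed gene Gm11615 overlaps it on the other strand. It measured 188, 182 and 203 CPM in basal cells (191 ± 10.8, SD, n = 3), 43.5, 36.4 and 40.1 CPM in marginal cells (40.0 ± 3.55, n = 3), 13.0, 15.0 and 16.4 CPM in intermediate cells (14.8 ± 1.72, n = 3), and 9.21 and 21.3 CPM in spindle/root cells, from 1 and 2 UMIs. The basal values lay above all others and the marginal values above the remaining ones. Wnk4 was higher in basal cells by 3.30 on the log2 scale (SE 0.19, adjusted p = 9.6e-28), in 3 of 3 captures. Basal exceeded marginal cells (marginal minus basal -2.45, SE 0.20, adjusted p = 1.88e-19), and marginal exceeded intermediate cells by 1.04 (SE 0.25, adjusted p = 0.000452). Lower levels of Wnk4 were called in intermediate (-1.35, SE 0.41, adjusted p = 0.00551) and spindle/root cells (-1.995, SE 0.64, adjusted p = 0.0149). The intermediate call was lost without capture 3 (adjusted p = 0.240), and the spindle/root call without capture 2 (adjusted p = 0.210) or capture 3 (adjusted p = 0.0881) and under 5 other alternatives.

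The 250 bases upstream of the RefSeq start on GRCm38.p6 were read for Stk39, Wnk2 and Wnk4. The levels of Stk39 and Wnk2 followed each other most closely, and Wnk4 followed basal cells. Capitals mark GC boxes, GGGCGG or CCGCCC on the other strand. Each is written 5′ to 3′ on the strand of its gene.

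Stk39: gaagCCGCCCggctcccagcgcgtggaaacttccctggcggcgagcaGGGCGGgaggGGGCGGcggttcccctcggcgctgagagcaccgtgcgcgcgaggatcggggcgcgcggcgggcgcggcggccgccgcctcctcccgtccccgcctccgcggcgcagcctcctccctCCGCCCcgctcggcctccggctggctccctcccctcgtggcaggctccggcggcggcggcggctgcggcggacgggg

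Wnk2: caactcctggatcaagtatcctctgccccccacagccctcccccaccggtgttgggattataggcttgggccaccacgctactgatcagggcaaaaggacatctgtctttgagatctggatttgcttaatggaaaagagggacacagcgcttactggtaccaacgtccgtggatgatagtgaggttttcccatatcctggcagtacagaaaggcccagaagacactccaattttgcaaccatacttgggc

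Wnk4: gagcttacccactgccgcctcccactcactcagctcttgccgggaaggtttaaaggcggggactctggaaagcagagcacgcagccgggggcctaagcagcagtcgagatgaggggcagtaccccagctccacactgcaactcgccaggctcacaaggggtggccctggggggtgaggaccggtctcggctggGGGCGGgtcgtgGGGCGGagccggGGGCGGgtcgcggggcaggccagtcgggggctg

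The windows were chr2:68471982-68472231 (minus strand) for Stk39, chr13:49148329-49148578 (minus strand) for Wnk2 and chr11:101260317-101260566 (plus strand) for Wnk4. GENCODE places the start of Stk39 upstream of the RefSeq start used here, at 68472268, so the Stk39 window lies wholly inside the GENCODE gene. It places the start of Wnk2 downstream, at 49148014, which the Wnk2 window does not reach. The Stk39 window was 82.4% G or C with 43 CG pairs and 4 GC boxes, the Wnk4 window 70.0% with 17 CG pairs and 3 GC boxes, and the Wnk2 window 51.6% with 5 CG pairs and no GC box. Over 32851 genes the median window was 52.4% G or C (quartiles 45.2 and 61.2) with 6 CG pairs (quartiles 2 and 16), and 32.7% of windows held a GC box. The Stk39 window thus lay at the high end and the Wnk2 window at the middle of this range. Since these windows sit differently to the GENCODE starts, no contrast between the genes is drawn from them. Of the 7 genes, 5 were matched in this set, and Slc12a2 and Bsnd were not. None of the 5 windows held AAGGTCA (in 4.08% of all windows, either strand), TATAAA (12.4%) or CACGTG (6.02%).

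Oxsr1, the gene of OSR1, was highest in basal cells like Wnk4. It measured 61.8, 74.5 and 44.6 CPM in basal cells (60.3 ± 15.0, SD, n = 3), 39.5, 27.3 and 31.6 CPM in marginal cells (32.8 ± 6.20, n = 3), 16.4, 20.2 and 23.4 CPM in intermediate cells (20.0 ± 3.50, n = 3) and 27.6 and 21.3 CPM in spindle/root cells (24.5 ± 4.46, n = 2). The basal values lay above all others, and the remaining types overlapped or were close. Oxsr1 was higher in basal cells by 1.42 on the log2 scale (SE 0.26, adjusted p = 5.1e-06). Basal exceeded intermediate cells (intermediate minus basal -1.43, SE 0.22, adjusted p = 3.84e-08) and marginal cells (marginal minus basal -1.18, SE 0.27, adjusted p = 0.000171), of which the second was lost without capture 2 (adjusted p = 0.125). No difference among marginal, intermediate and spindle/root cells passed the test.

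Wnk1, a WNK kinase gene known for its broad expression, was present in every type. It lies at chr6:119923969-120038672 on the minus strand, with the listed gene Gm16199 on the other strand. It measured 249.95, 259 and 205 CPM in basal cells (238 ± 28.7, SD, n = 3), 162, 191 and 145 CPM in marginal cells (166 ± 23.0, n = 3), 164, 160.3 and 142 CPM in intermediate cells (155 ± 11.5, n = 3) and 138 and 171 CPM in spindle/root cells (154 ± 22.9, n = 2). Only the basal values stood apart. Erythroid cells, at 81.9 and 88.2 CPM, macrophages, at 102 to 143 CPM, and B cells, at 114 CPM, also held Wnk1. The log2 fold change in basal cells was 0.67 (SE 0.14, adjusted p = 5.47e-05). Basal exceeded marginal cells (marginal minus basal -0.65, SE 0.15, adjusted p = 0.000181), intermediate cells (-0.45, SE 0.13, adjusted p = 0.00303) and spindle/root cells (basal minus spindle/root 0.89, SE 0.27, adjusted p = 0.0079). The last 2 calls were lost without capture 2 (adjusted p = 0.0668 and 0.275), and the last also without TMM scaling (0.62, adjusted p = 0.0874) and with the 7 genes and the pathway list allowed in clustering (0.57, adjusted p = 0.0692). Marginal, intermediate and spindle/root cells did not differ past the threshold from one another.

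Counted over the 7 genes, 4 were higher in marginal cells (Slc12a2, Bsnd, Wnk2 and Stk39), where 15.4% of all genes tested were higher, and 0 were lower, where 10.4% were. The 0 lower genes in edgeR stayed 0 at an unadjusted p under 0.05 and with DESeq2. In intermediate cells 0 were higher, also at an unadjusted p under 0.05 and with DESeq2, against 17.9% of all genes, and 4 were lower (Bsnd, Wnk2, Wnk4 and Stk39), against 17.4%. In basal cells 3 were higher (Wnk1, Wnk4 and Oxsr1), against 16.8%, and 1 was lower (Bsnd), against 9.41%. In spindle/root cells 0 were higher in edgeR, against 12.6%, with 1 at an unadjusted p under 0.05, 0 with DESeq2 and 2 with DESeq2 unadjusted, and 2 were lower (Slc12a2 and Wnk4), against 9.69%. The median log2 fold change of the 7 genes was 1.51 in marginal, -1.34 in intermediate, 0.67 in basal and -0.52 in spindle/root cells, where the median of all genes was 0.06, 0.03, 0.05 and -0.11. Leaving out a capture turned the 1 lower gene in basal cells into 0 without capture 2 or 3 and 2 without capture 1, and the 2 lower genes in spindle/root cells into 1 without capture 2 or 3. Without TMM scaling the median of all genes moved to 0.18, -0.28, -0.04 and 0.16 in the 4 types, and the share of higher among all calls from 59.7, 50.7, 64.0 and 56.5% to 71.4, 25.6, 54.7 and 74.4%, while DESeq2 gave 58.5, 41.99, 64.2 and 73.0%. Slc12a2 in intermediate cells, at 0.10 with TMM, came to -0.22 without it, above the median of all genes in both.

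**Figure D3:**
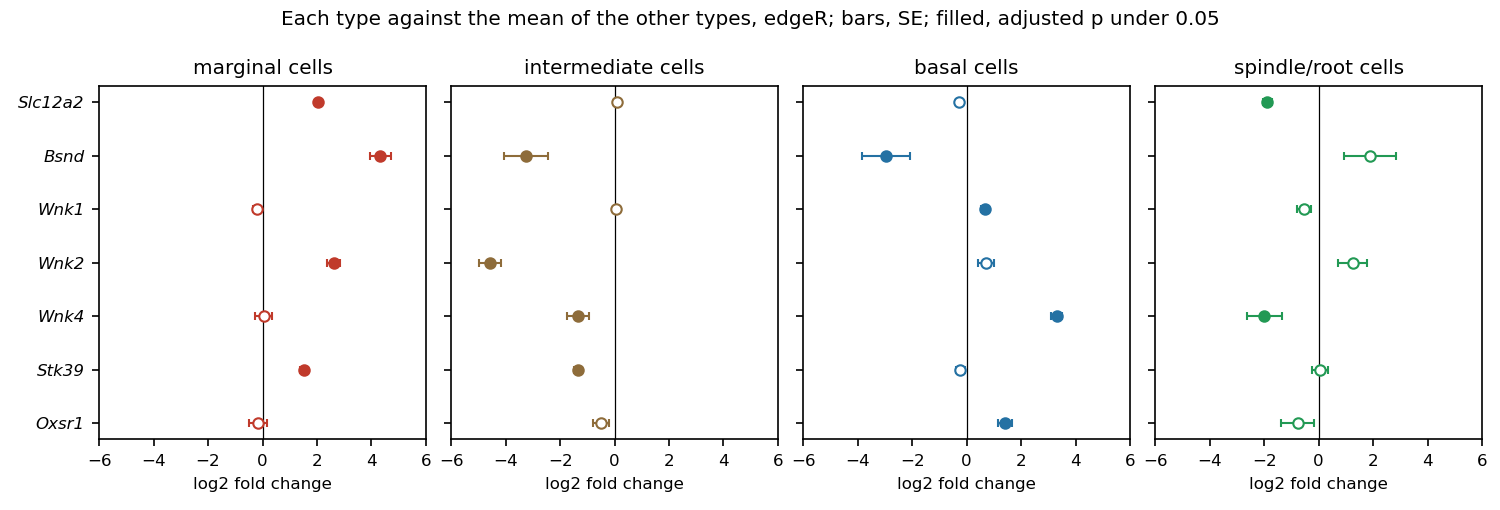
Log2 fold change of each gene in a type against the mean of the other types in edgeR (horizontal axis, log2), one panel per type, bars giving the SE over the fit of 11 sums; filled circles have an adjusted p under 0.05. Slc12a2, Bsnd, Wnk2 and Stk39 lie right of 0 in marginal cells, and Wnk1, Wnk4 and Oxsr1 in basal cells.

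Over the 6 pairs of types, 29 of 42 differences passed the test. The share of all genes called in either direction was 35.6% for marginal against intermediate, 31.2% for marginal against basal, 21.4% for marginal against spindle/root, 34.6% for intermediate against basal, 27.6% for intermediate against spindle/root and 23.8% for basal against spindle/root cells. Without capture 2 the number was 21 and without capture 3 it was 23.

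In nuclei, which had 1 library and no test, Slc12a2 was again highest, among named types, in the marginal type, at 5375 CPM (exact 95% Poisson interval 5304 to 5447). These intervals, here and below, cover counting error only. It stood at 2044 CPM (1957 to 2135) in basal, 1783 CPM (1731 to 1837) in intermediate and 1150.5 CPM (1043 to 1266) in spindle/root nuclei, and at 311 CPM (290.1 to 333) in erythroid nuclei. Marginal nuclei thus held 3.01 times the CPM of intermediate nuclei (counting interval 2.92 to 3.11). Malat1 measured 302643 and 116831 CPM in the intermediate clusters of 1241 and 221 nuclei, and 143096 CPM in marginal nuclei. Malat1 UMIs are part of the total, so this ratio depends on them too, and a ratio without them was not computed. For Slc12a2 the order of basal and intermediate was the reverse of that of the cell means, with a ratio of 1.15 (1.09 to 1.21). Intermediate nuclei came from clusters of 1241 and 221 nuclei, at 1530 and 2458 CPM of Slc12a2. Only the larger cluster lay below basal nuclei. Marginal, intermediate and erythroid nuclei with a UMI made up 99.2, 86.8 and 74.4% of their type, and their median depth was 1377, 1418 and 5254 UMIs, and after thinning to 500 UMIs the shares were 89.8, 54.4 and 15.1%. Smaller groups lay between, with 1642 CPM in 138 fibrocyte, 1401 CPM in 96 Reissner's membrane, 582 CPM in 204 B cell and 442 CPM in 73 neutrophil nuclei.

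Bsnd measured 71.6 CPM (63.6 to 80.3) in marginal nuclei, close to the cell captures, 22.9 CPM (14.5 to 34.4) in basal, 10.96 CPM (2.99 to 28.1) in spindle/root and 8.11 CPM (4.96 to 12.5) in intermediate nuclei. In erythroid nuclei it measured 5.96 CPM (3.41 to 9.68), an interval that overlapped the one for intermediate nuclei. Marginal markers were present in the other nuclei as given above, and Bsnd lay inside the markers' range in basal nuclei.

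The kinase genes of the marginal type had higher values in nuclei than in cells. Stk39 measured 1143 CPM (1111 to 1177) in marginal, 616 CPM (538 to 702) in spindle/root, 525 CPM (481 to 572) in basal and 135 CPM (121 to 151) in intermediate nuclei, and 752 CPM (656 to 857) in fibrocyte nuclei. Wnk2 measured 862 CPM (834 to 891) in marginal, 534 CPM (462 to 615) in spindle/root, 280.1 CPM (248 to 315) in basal and 17.0 CPM (12.3 to 23.0) in intermediate nuclei. For Wnk2 the low level of intermediate nuclei was close to that of erythroid nuclei, at 14.9 CPM (10.7 to 20.3). Marginal nuclei held 1.61 times the Wnk2 of spindle/root nuclei (1.40 to 1.87), a difference that did not pass the test in cells. The spindle/root value rested on 1 of its clusters, whose 42 nuclei held 115 of the 195 UMIs at 1417 CPM, above marginal nuclei. Without them the other 169 spindle/root nuclei measured 282 CPM (223 to 351). The cluster was picked because its Wnk2 was the highest, so a lower value without it was set in advance. No other type was trimmed in this way, so the value is a description only. Other genes were also uneven among the spindle/root clusters. Stk39 measured 1291 CPM, from 83 UMIs, in a cluster of 41 nuclei, beside 1143 CPM in marginal nuclei. Slc12a2 measured 3330 CPM, from 109 UMIs, in a cluster of 14 nuclei. No interval was computed for these clusters, so whether they differ from other nuclei beyond counting error was not tested. Cells and nuclei were counted on different gene lists and prepared differently, and the levels were not tested against each other.

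Wnk4 measured 156 CPM (133 to 183) in basal, 27.0 CPM (22.2 to 32.5) in marginal, 24.7 CPM (11.3 to 46.8) in spindle/root and 13.8 CPM (9.55 to 19.3) in intermediate nuclei. Basal nuclei held 5.80 times the Wnk4 of marginal nuclei (4.52 to 7.47), the direction seen in every cell capture. Wnk1 measured 391.7 CPM (330.1 to 461) in spindle/root, 272 CPM (241 to 306) in basal, 219 CPM (201 to 239) in intermediate and 169 CPM (157 to 183) in marginal nuclei. Among these 4 types, Wnk1 was therefore highest in spindle/root for nuclei and in basal for cells. The 96 Reissner's membrane nuclei measured 414 CPM of Wnk1, above the spindle/root value. Without the same 42 nuclei, which were picked for Wnk2 and measured 653 CPM of Wnk1, spindle/root nuclei came to 317 CPM (255 to 390). This interval overlapped the one for basal nuclei, but no other type was trimmed in this way. Of 36 differences between types that could be set side by side in cells and nuclei, 30 had the same direction in every cell capture compared. Of these 30, 2 had the other direction in nuclei. The same shares over all genes were not computed, so these counts say nothing particular about the 7 genes.

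Oxsr1 had 0 UMIs in all kept nuclei, of 18521034 UMIs, against 480 of 18327476 in kept cells. A count of 0 allows at most 0.904 CPM in marginal and 10.1 CPM in spindle/root nuclei. By GENCODE, Oxsr1 at chr9:119238432-119322427 on the minus strand lies wholly within the span of Slc22a14 at chr9:119169455-119365553 on the same strand. Slc22a14 had 0 UMIs in cells and 49 in nuclei. Of 120 genes with at least 50 UMIs in kept cells whose span lies within that of a gene on the same strand, 117 (97.5%) were at 0 in nuclei, as were 61 of 10371 (0.588%) other genes. No order of types is therefore given for Oxsr1 in nuclei, and the part of the overlap in its count was not tested.

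Within the marginal class the 3 clusters of cells differed in depth, and their pooled levels are a description. Slc12a2 measured 6804, 8007 and 8917 CPM in clusters of 57, 41 and 34 cells. Bsnd measured 46.8, 61.4 and 141 CPM and Wnk1 197, 184 and 62.2 CPM in the same order. The third cluster also had the lowest median depth, 6634 UMIs against 14677 and 11167. Its mitochondrial share was 12.8%, against 28.1 and 33.3%. Mitochondrial UMIs are part of the total, so the order of these levels depends on that share too. After thinning, 1001 of 2534 marginal nuclei had a UMI of both Slc12a2 and Stk39. A further 1275 had Slc12a2 alone, 112 had Stk39 alone and 146 had neither. Whether the genes occurred together beyond what their single shares give was not tested. Among the unnamed barcodes, Slc12a2 measured 1748, 1969.6 and 1826 CPM in the 3 cell captures and 3029.9 CPM in the nucleus library, where Bsnd measured 17.3 CPM. The 3 largest unnamed clusters of that library had mitochondrial shares of 51.4, 61.6 and 35.3% and 3931, 4435 and 4377 CPM of Malat1. Marginal nuclei had 6.40% and 143096 CPM. Whether these unnamed barcodes held nuclei was not tested. An unnamed cluster of 352 cells, with a median of 7179.5 UMIs, had 3161 CPM of Slc12a2, above every intermediate and basal value of a capture. Its mitochondrial share was 43.7%. The unnamed clusters of 517, 411, 338 and 37 cells had 1309, 733, 1242 and 86.2 CPM. One unnamed cluster of 50 nuclei, with a median of 5216 UMIs, had 10490.5 CPM of Slc12a2 and 117 CPM of Bsnd, above marginal nuclei for both. It had all 8 marginal markers raised but was led by Mbp, a myelin gene, and marginal nuclei were the highest of the named types only.

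The other genes of the pathway were taken as a list of 31, of which 18 could be tested in cells. In marginal cells 6 of the 18 were higher and 0 lower in edgeR (1 at an unadjusted p under 0.05, 0 with DESeq2), with a median log2 fold change of 0.33. Intermediate cells had 4 higher and 6 lower (median -0.30), basal cells 4 and 4 (median 0.21), and spindle/root cells 3 and 3 (median -0.41). The spindle/root counts came to 0 and 0 without capture 2 and to 1 and 0 without capture 3. The shares of all genes called are those given above for each type.

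Among cotransporters, Slc12a7, which encodes the potassium-chloride cotransporter KCC4, was higher in marginal cells by 2.74 on the log2 scale (SE 0.17, adjusted p = 4.91e-26). It measured 221, 199 and 245 CPM in marginal cells, 10.8 to 19.1 CPM in intermediate, 13.4 to 21.5 CPM in basal and 147 and 53.3 CPM in spindle/root cells. Its values of -2.02 in intermediate (SE 0.23, adjusted p = 4.16e-12) and -1.86 in basal cells (SE 0.28, adjusted p = 5.83e-08) also passed, as did 1.14 in spindle/root cells (SE 0.38, adjusted p = 0.0218), which lay below marginal cells but above the other types. Slc12a4, which encodes KCC1, was called higher in intermediate cells (1.27, SE 0.37, adjusted p = 0.00366) at 27.0 to 29.4 CPM, beside 24.0 and 24.8 CPM as means of marginal and basal cells, and with 1 UMI in spindle/root cells. In nuclei its order from high to low was spindle/root, basal, intermediate and marginal, so intermediate nuclei were not the highest.

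Among chloride channels, Lrrc8d, a subunit of the volume-regulated anion channel, was higher in marginal (1.13, SE 0.15, adjusted p = 2.34e-09) and basal cells (1.24, SE 0.15, adjusted p = 6.14e-11) and lower in intermediate cells (-1.48, SE 0.20, adjusted p = 4.95e-10). It measured 188 to 236 CPM in marginal, 132 to 246 CPM in basal and 37.5 to 48.5 CPM in intermediate cells, and 409.7, 393 and 75.04 CPM in the nuclei of these types. Lrrc8a, the subunit that every such channel needs, was lower in basal cells (-1.28), with a mean of 34.5 ± 7.75 CPM (SD, n = 3) against 73.4 ± 19.8 CPM in marginal cells. Its order from high to low in cells was spindle/root, intermediate, marginal and basal, and it was also called higher in intermediate cells. Kept nuclei held 3 of its UMIs against 939 in kept cells, and 89.1% of its span lies in genes on the same strand. Clcn2, a chloride channel gated by hyperpolarisation, was higher in basal cells by 2.57 (SE 0.51, adjusted p = 3.15e-05), at 20.1 to 26.9 CPM, and stood at 24.9 CPM in basal nuclei.

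Among WNK partners and regulators, Sgk1, which encodes an aldosterone-induced kinase, was higher in marginal cells by 3.12 on the log2 scale (SE 0.13, adjusted p = 2.88e-37). Sgk1 measured 415, 630.0 and 582 CPM in marginal, 18.1 to 27.7 CPM in intermediate, 42.4 to 56.2 CPM in basal and 221 and 149 CPM in spindle/root cells. It was lower in intermediate (-2.63, SE 0.19, adjusted p = 2.36e-22) and basal cells (-1.28, SE 0.20, adjusted p = 1.1e-07). Cab39l, which encodes a scaffold that activates SPAK and OSR1, was higher in marginal cells by 1.52 (SE 0.15, adjusted p = 2.66e-14), with 253, 214 and 204 CPM against 92.9 to 108 CPM in basal and 52.3 to 57.0 CPM in intermediate cells. In nuclei Cab39l measured 554 CPM in the marginal type and 209 to 290.4 CPM in the other 3 types. Nedd4l, a ubiquitin ligase of ion transporters, was lower in intermediate cells (-1.13, SE 0.31, adjusted p = 0.00189), and Cab39 was lower in spindle/root cells (-1.22, SE 0.42, adjusted p = 0.0238) on 9 UMIs. Of the 13 genes not tested, Slc12a1, Slc12a3, Slc12a8, Cftr, Wnk3 and Klhl3 had 0 UMIs in the cell sums.

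**Figure D4:**
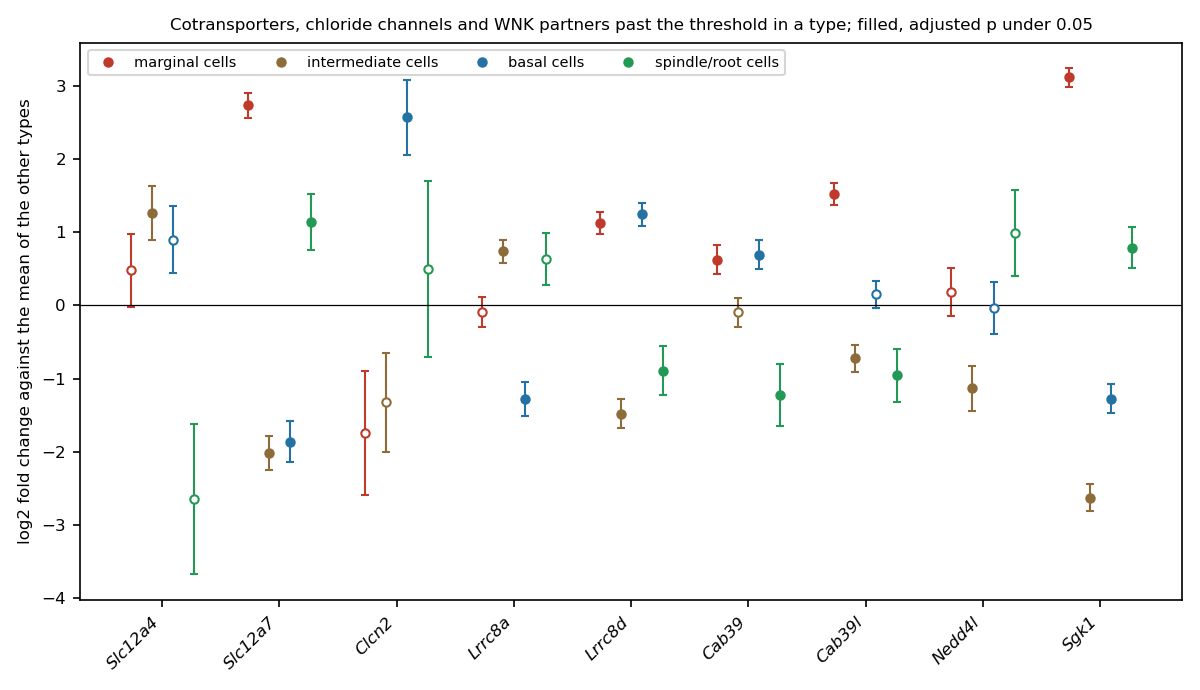
Log2 fold change (vertical axis) against the mean of the other types for the cotransporters, chloride channels and WNK partners reported here that passed the threshold in at least 1 type, bars giving the SE and filled circles an adjusted p under 0.05. Sgk1, Slc12a7 and Cab39l are highest in marginal cells, and Clcn2 in basal cells.

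Across the 11 sums, the 7 genes fell along the order of types in different ways, given as Pearson r of log2(CPM + 10) with no test, since the sums share captures and types. Wnk2 and Stk39 were most alike (r = 0.97), followed by Bsnd and Stk39 (0.93), Wnk4 and Oxsr1 (0.90), Wnk1 and Wnk4 (0.87) and Bsnd and Wnk2 (0.83). Outside the pathway, the genes most like Slc12a2 were Pgam1 (0.99), Lrrk2, AA467197, Slc25a12 and Spire1 (0.97 to 0.98), with r over the 4 types in nuclei of 0.94, 0.99, 0.94, 0.53 and 0.96. Those most like Bsnd were Gsc, Reep5, Gde1, Lamb1 and Rassf4 (0.99 to 1.00), with r in nuclei of 0.90, 0.97, 0.57, 0.80 and 0.30. Those most like Wnk1 were Ensa, Arhgef12 and Trp53inp2 (0.95 to 0.98), with -0.07, 0.57 and 0.32 in nuclei, so that Ensa did not follow it there. Fam20c was among the 3 genes most like both Wnk2 and Stk39 (0.98 for each), beside Eny2 and Sorbs2 for Wnk2 and Pcsk6 and Rspo3 for Stk39. Ablim3, Heg1 and Nfe2l1 were most like Wnk4 (0.97), with 0.95, 0.93 and 0.76 in nuclei, and Ppm1b, Gucy1b3 and Tmem63a were most like Oxsr1 (0.96).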

How the data were processed

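The deposited values are counts: the authors aligned 10x Genomics reads of each library to mm10 with Cell Ranger (2.0.0 in the submitters' processing notes), under its default settings and on the mm10 reference of 10x Genomics per their methods, and counted UMIs per gene and barcode, without normalization. The gene list of the nuclei differs from that of the cells, and neither its annotation nor whether intronic reads were counted for nuclei is given separately in the sources used here. The 7 genes, the pathway list and the markers were chosen with earlier results of these data known.

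Barcodes under 200 genes and doublets (Scrublet in scanpy 1.11.5, 0.8% removed per 1000 barcodes) were left out. Cells and nuclei were clustered separately (Seurat 5.3.0, R 4.3.3, resolution 0.8) on 2000 variable genes without the 7 genes and the pathway list. A cluster was named where at least 3 of its class's markers were raised 2-fold and found in 10% of its barcodes and no other class came to 0.67 of its score, a rule revised after clusters were seen and before any test. The most raised genes of a named cluster also could not hold more markers of another class. A shallow cluster further needed a marker of its class among them. Types thus come from the same cells that were then summed.

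Counts were summed per capture and type with at least 5 cells, giving 11 sums, and fitted in edgeR 4.0.16 (TMM, filterByExpr, robust quasi-likelihood) with the capture as block, since the types of a capture share mice. Over 6780 genes, deviations of types from the same capture correlated at 0.00738 to 0.169 in 15 pairs. DESeq2 1.42.0 was an alternative, and the scripts were tested on simulated data. Named are the 7 genes, pathway genes past an adjusted p of 0.05 with a log2 fold change of at least 1, and the 3 or 5 genes most like each of the 7; the values of some pathway genes are not reported here, though counts over the list include them. Intervals are exact (Poisson, binomial) and cover counting error only. Positions come from GENCODE vM21 on mm10.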

Additional observations from a re-analysis of the deposited data

Results flagged for a closer look

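Of 36 differences between types set side by side, 2 had one direction in every cell capture compared and the other in nuclei, and this difference between cells and nuclei was not tested. The same share over all genes was not computed. Wnk1 measured 272 CPM in basal and 391.7 CPM in spindle/root nuclei, with exact 95% Poisson intervals of 241 to 306 and 330.1 to 461 that did not overlap, whereas in cells the basal value was higher in both captures compared. Without 1 cluster of 42 nuclei, picked for its high Wnk2 after the data were seen, the spindle/root value was 317 CPM (255 to 390). That interval overlapped the basal one, but no other type was trimmed in this way. Bsnd measured 22.9 CPM in basal and 10.96 CPM in spindle/root nuclei, with intervals of 14.5 to 34.4 and 2.99 to 28.1 that overlapped, whereas in cells the spindle/root value was higher in both captures compared. In cells the Bsnd difference rested on 2 UMIs in basal and 4 UMIs in spindle/root cells.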

How the results depend on the processing

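The 28 values of the 7 genes (each type against the other 3) were recomputed under 15 alternatives, of which leaving out mitochondrial genes was chosen after seeing the data. Of 420 values, 362 kept their direction and their side of the threshold, 10 fell short of it, 23 newly passed it and 25 changed sign. Of 435 values for the 29 pairs called, 404 kept both, 28 fell short and 3 changed sign. The count of genes higher in marginal cells was 4 under every alternative, as was the count of genes highest in marginal nuclei under the 6 alternatives that bear on nuclei. The share of all genes that were highest in marginal nuclei was not computed. The cause of a change was not tested, but several settings moved barcodes between classes. Marginal cells numbered 19, 68 and 45 in the main analysis and 12, 53 and 33 at resolution 0.4. They numbered 46, 177 and 131 at resolution 1.2 and 46, 173 and 130 at a minimum of 500 genes per barcode. Spindle/root cells numbered 4, 14 and 13 in the main analysis and 11, 29 and 25 at resolution 0.4.

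The sign changed for values that had not passed the test, and at resolution 0.4 also for called ones. Slc12a2 in intermediate cells came to -0.22 without TMM scaling, -0.01 without capture 3 (leaving out a capture gave -0.01 to 0.20), -0.60 at resolution 0.4, where it was called lower (adjusted p = 3.65e-06), -0.03 at resolution 1.2 and -0.22 with the 7 genes and the pathway allowed in clustering. Wnk1 in intermediate cells came to -0.25 without TMM scaling, -0.01 without doublet removal, -0.10 at resolution 1.2, -0.02 with the genes allowed and -0.05 at a minimum of 500 genes per barcode. Wnk1 in marginal cells came to 0.12 at resolution 0.4 and 0.04 at 500 genes. Wnk4 in marginal cells came to -0.01 without capture 1, -0.05 without capture 2 (range -0.05 to 0.30), -0.21 without doublet removal, -0.34 at resolution 1.2, -0.24 with the genes allowed and -0.12 at 500 genes. Stk39 in spindle/root cells came to -0.12 without the filter on low counts and -0.13 without capture 2 (range -0.13 to 0.13). Oxsr1 in marginal cells came to 0.16 without capture 2 (range -0.27 to 0.16), 0.21 at resolution 0.4, 0.44 at resolution 1.2 and 0.42 at 500 genes. At resolution 0.4, Slc12a2 in spindle/root cells, at -1.88 and called lower, came to 0.30 and was called higher (adjusted p = 0.0188), its differences from intermediate and basal cells to -0.67 and -0.96, and the Bsnd difference between marginal and spindle/root cells to -0.42.

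In intermediate cells the 4 lower genes became 5 without TMM scaling and at resolution 1.2 (with Oxsr1) and at resolution 0.4 (with Slc12a2), and 3 without capture 3 (Wnk4 lost). Over all 7372 genes, lower calls in intermediate cells also rose without TMM scaling, from 1285 to 2152. Lower calls in basal cells then rose from 694 to 877, and higher calls in spindle/root cells from 928 to 1258. Lower calls in spindle/root cells fell from 714 to 433, and to 347 with DESeq2. For changes of clustering, doublet removal, barcode minimum or captures, calls over all genes are not given here. The 3 higher genes in basal cells became 4, with Wnk2, at resolution 1.2, with 20 principal components, with the genes allowed in clustering and at 500 genes. In marginal cells 1 gene was lower with the genes allowed in clustering. In basal cells, 2 were lower without TMM scaling, without doublet removal, at resolution 1.2 and with the genes allowed, and 3 at resolution 0.4, and leaving out a capture gave 0 to 2. In spindle/root cells, 1 was higher without TMM scaling, without doublet removal, at resolution 1.2 and with the genes allowed, and 4 at resolution 0.4, and 1 was lower with DESeq2, without TMM scaling, without doublet removal, at resolution 1.2 and with the genes allowed (1 to 2 when a capture was left out). At resolution 0.4, 3 were lower there, with Wnk1 (-0.98, adjusted p = 2.31e-05) and Oxsr1 (-1.29, adjusted p = 0.0149) in and Slc12a2 out. Of the pathway list, 1 gene was lower in marginal cells at resolution 1.2, with the genes allowed and at 500 genes, and 2 were higher in intermediate cells with DESeq2 and without TMM scaling. In spindle/root cells, 0 of the list were higher without the filter on low counts and 6 at resolution 0.4, with 0 to 3 when a capture was left out. There, 0 were lower with DESeq2, without TMM scaling, without doublet removal and at resolution 1.2, 1 with the genes allowed or mitochondrial genes left out, and 0 to 3 when a capture was left out.

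Without the replicate block, 29 pairs were called as with it, and the block changed no count of the 7 genes. No paired analysis was possible for the nuclei because they form 1 library of their own. With a pseudocount of 1 in place of 10, the number of most similar genes kept was 2 of 5 for Bsnd, 0 of 3 for Wnk2 and 1 of 3 for Wnk4 and Stk39. Depth limits what can be said of spindle/root cells (27 cells) and of Bsnd outside marginal cells. Leaving out the cluster of spindle/root nuclei highest in Wnk2, also chosen after seeing the data, moved Wnk1 and Wnk2 there to 317 and 282 CPM. The fall of Wnk2 was set by that choice.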
